A study of Saccharomyces cerevisiae with 8 samples.

Results

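The 10 ORFs described here belong to the budding yeast phosphate regulon and were taken by name, with earlier results of these data known: the phosphate transporter genes *PHO84* and *PHO89*, *SPL2*, the acid phosphatase genes *PHO5*, *PHO11* and *PHO12*, the regulator *PHO81*, and the polyphosphate synthesis genes *VTC1*, *VTC3* and *VTC4*. These 10 ORFs were among 6212 in the table of array values, and all 10 had a value on all 8 arrays. Transcript levels were measured in BY4741 cells that lacked *PTC6* (*ptc6::kanMX4*) and in BY4741 cells that lacked *PTC1* as well (*ptc1::NAT ptc6::kanMX4*). *PTC1* and *PTC6* encode type 2C protein phosphatases. Every mutant was hybridized against wild-type (wt) BY4741 on DNA arrays of PCR-amplified ORFs, and cells of every group grew untreated in the log phase in YPD, a rich medium, at 28 °C. Each mutant had 2 biological replicates, and each replicate had 2 arrays with the dyes swapped, so that there were 4 arrays per mutant. No array carried a *ptc1* mutant alone, and whether the mutant strains were 1 clone each, or whether the hybridizations shared a wt culture, is not stated.

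In budding yeast the phosphate pathway is run by the cyclin and kinase pair Pho80 and Pho85, which keeps the transcription factor Pho4 out of the nucleus while phosphate is plentiful. When phosphate runs short, the inhibitor Pho81 holds the kinase back, and Pho4, with Pho2, turns on genes for phosphate uptake, for secreted acid phosphatases that free phosphate from organic compounds, and for the VTC complex, which makes polyphosphate and moves it into the vacuole. The ratio of each ORF is given as log2 of mutant over wt, so that 0 is no difference, 1 is a 2-fold higher and -1 a 2-fold lower mutant signal. A low ratio can come from less transcript in the mutant or from more in the wt culture on the same array, and these cannot be told apart here. A replicate value is the mean of its 2 dye-swap arrays, and the test was limma over the 2 replicate means of each mutant, with the Benjamini-Hochberg adjustment over all ORFs tested.

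The deleted genes were far below 0 in the strains that lack them. *PTC1* was at -2.56 ± 0.18 (SD, n = 2 replicates) in *ptc1 ptc6* cells, and *PTC6* was at -2.34 ± 0.11 in *ptc6* cells and at -3.94 ± 1.11 in *ptc1 ptc6* cells, the last on 2 arrays. The *ptc6* value, on 3 arrays, did not pass the limma test (adjusted p = 0.407), in which 0 ORFs passed in *ptc6* cells, while both *ptc1 ptc6* values did (adjusted p = 0.000931 and 0.00653). That fit used 1 spread for both mutants. With each mutant fitted alone in limma, *PTC6* passed in *ptc6* cells (adjusted p = 1.33e-08), as 1 of 10 ORFs among 4824. The main test thus missed a deleted gene in *ptc6* cells, and 0 calls there do not show that genes are unchanged. Between 4050 and 5537 ORFs had a value on each array, and the SD over ORFs was 0.24 to 0.33 on the *ptc6* arrays and 0.42 to 0.54 on the *ptc1 ptc6* arrays.

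In *ptc1 ptc6* cells the acid phosphatase genes *PHO11* and *PHO12* were lower than in wt, by 2.10-fold and 2.12-fold, and the other 8 members did not pass the test. The 2 *ptc1 ptc6* replicates differed at the members. The median member stood at -0.02 in replicate 1 and at -1.06 in replicate 2, and all 10 members were lower in replicate 2. In *ptc6* cells no member passed the test, and the replicate medians were 0.15 and -0.03. The values per array are in the plot of the members by array.

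**Figure D1:**
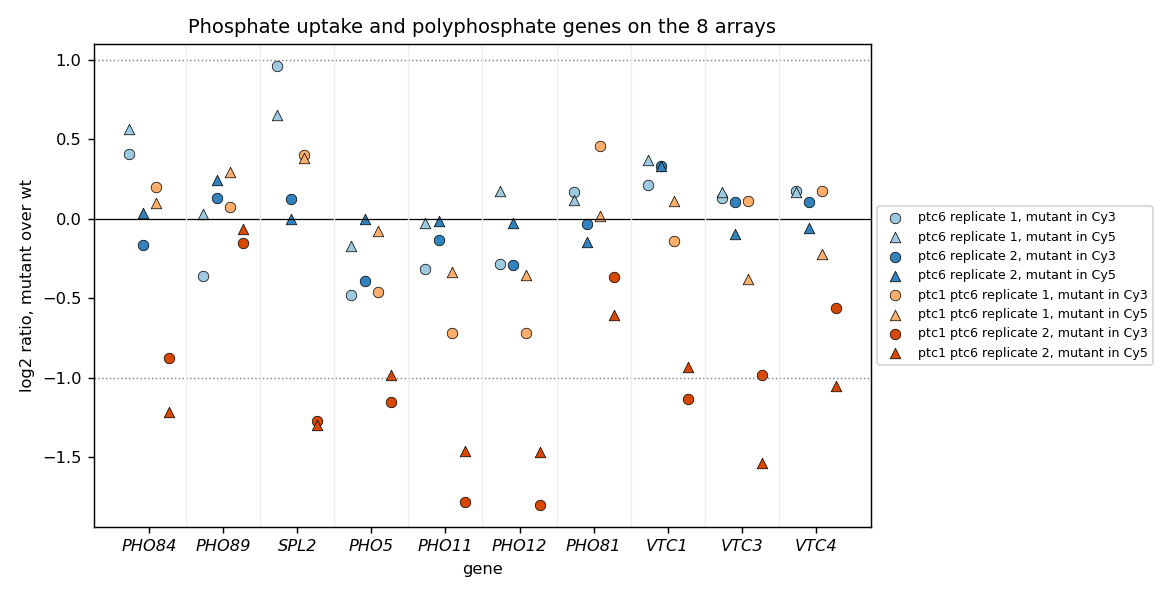
Log2 ratio of mutant over wt (y axis) for each of the 10 genes (x axis) on each of the 8 arrays, with the color for the mutant and biological replicate and circles or triangles for the mutant in Cy3 or Cy5. Dotted lines mark a 2-fold difference. Both arrays of *ptc1 ptc6* replicate 2 have all 10 genes below 0, while on the other 6 arrays between 2 and 7 genes are below 0.

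*PHO84* (*YML123C*) encodes the high-affinity proton-coupled phosphate transporter of the plasma membrane. On the *ptc6* arrays it gave 0.41 and 0.56 in replicate 1 and -0.16 and 0.034 in replicate 2, with the array that had the mutant in Cy3 named first here and throughout. On the *ptc1 ptc6* arrays it gave 0.20 and 0.099 in replicate 1 and -0.874 and -1.215 in replicate 2. The *ptc1 ptc6* replicates thus lay on opposite sides of 0, 2.29-fold apart, and their arrays did not overlap. The mean of -0.45 ± 0.84 (SD, n = 2) did not pass the test (adjusted p = 0.304, 95% interval -1.12 to 0.22), and neither did that of 0.21 ± 0.39 in *ptc6* cells (adjusted p = 0.860).

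*SPL2* (*YHR136C*) encodes a small protein that restrains low-affinity phosphate uptake when phosphate is scarce. In *ptc6* cells it gave 0.96 and 0.66 in replicate 1 but 0.13 and -0.003 in replicate 2. In *ptc1 ptc6* cells it gave 0.4 and 0.384 in replicate 1 and -1.27 and -1.30 in replicate 2. This was the widest gap between the *ptc1 ptc6* replicates among the members, 3.20-fold, although the dye-swap arrays of each replicate lay within 0.025 of each other. Its means of 0.44 ± 0.53 in *ptc6* cells and -0.45 ± 1.19 in *ptc1 ptc6* cells (SD, n = 2) did not pass the test (adjusted p = 0.771 and 0.447).

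*PHO89* (*YBR296C*) encodes the sodium-coupled phosphate transporter, the other high-affinity carrier. It stayed within -0.361 and 0.296 on all 8 arrays, and its means were 0.012 ± 0.25 in *ptc6* cells and 0.038 ± 0.21 in *ptc1 ptc6* cells (SD, n = 2, adjusted p = 0.987 and 0.874). The 95% intervals of these means were -0.31 to 0.34 and -0.29 to 0.36. Its *ptc1 ptc6* replicates were 1.22-fold apart, the narrowest gap among the members. The sign of its mean changed when arrays of 1 dye orientation were used.

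*PHO11* (*YAR071W*) and *PHO12* (*YHR215W*) encode secreted acid phosphatases and are near-identical copies in subtelomeric repeats, so that their PCR probes may bind the transcripts of both. On the *ptc1 ptc6* arrays *PHO11* gave -0.72 and -0.33 in replicate 1 and -1.78 and -1.46 in replicate 2. *PHO12* gave -0.72 and -0.35, and -1.80 and -1.47, on the same arrays. The ORFs differed by 0.02 or less on each of these arrays, so that they may be 1 measurement. They are counted as 2 ORFs in what follows, and the main counts are also given with the pair as 1. All 4 arrays were below 0 for both, with both arrays of replicate 2 below both of replicate 1. The means were -1.07 ± 0.77 for *PHO11* and -1.08 ± 0.78 for *PHO12* (SD, n = 2), with adjusted p = 0.0379 and 0.0378. These limma values used a spread shared with the *ptc6* replicates, which lay closer together. With each mutant fitted alone in limma, neither ORF passed (adjusted p = 0.0715 for *PHO11* and 0.0707 for *PHO12*). That fit called 849 of 4596 ORFs in *ptc1 ptc6* cells, where the main fit called 649. In *ptc6* cells *PHO11* and *PHO12* lay between -0.315 and 0.174 on the 4 arrays, with means of -0.12 ± 0.07 and -0.11 ± 0.07 (adjusted p = 0.914 and 0.931).

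*PHO5* (*YBR093C*) encodes the main secreted acid phosphatase that phosphate represses. It was below 0 on all 8 arrays, with -0.48, -0.17, -0.39 and -0.002 in *ptc6* cells and -0.46, -0.074, -1.15 and -0.98 in *ptc1 ptc6* cells. Its mean of -0.67 ± 0.56 (SD, n = 2) in *ptc1 ptc6* cells missed the threshold (adjusted p = 0.0625), and that of -0.26 ± 0.09 in *ptc6* cells had an adjusted p of 0.714. Its probe may also bind transcripts of *PHO3*, the constitutive acid phosphatase gene beside it.

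*PHO81* (*YGR233C*), the kinase inhibitor of the pathway, had the smallest *ptc1 ptc6* mean and replicate gap after those of *PHO89*. It gave 0.46 and 0.020 in *ptc1 ptc6* replicate 1 and -0.36 and -0.61 in replicate 2, which put the replicates 1.65-fold apart around a mean of -0.12 ± 0.51 (SD, n = 2, adjusted p = 0.672). On the *ptc6* arrays it lay between -0.143 and 0.166.

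The VTC genes encode subunits of the vacuolar transporter chaperone: Vtc4 carries the polymerase activity, Vtc3 is a companion subunit, and Vtc1 is a small membrane subunit. On the *ptc1 ptc6* arrays *VTC1* (*YER072W*) gave -0.14 and 0.11 in replicate 1 and -1.137 and -0.930 in replicate 2. *VTC3* (*YPL019C*) gave 0.11 and -0.38, and then -0.98 and -1.54. *VTC4* (*YJL012C*) gave 0.17 and -0.22, and then -0.56 and -1.05. For each of the 3 genes replicate 1 spanned 0 and both arrays of replicate 2 were lower. The means were -0.52 ± 0.72, -0.70 ± 0.80 and -0.42 ± 0.56 (SD, n = 2), and none passed the test (adjusted p = 0.160, 0.103 and 0.175). *VTC1* was above 0 on all 4 *ptc6* arrays, between 0.21 and 0.37, although its mean of 0.31 ± 0.03 did not pass (adjusted p = 0.716). *VTC3* and *VTC4* had *ptc6* means of 0.08 ± 0.10 and 0.10 ± 0.11.

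Over the members, the limma test called 2 of 10 lower in *ptc1 ptc6* cells and 0 higher, where it called 8.49% of the 4596 ORFs tested lower and 5.64% higher. At an unadjusted p under 0.05 these were 4 of 10 lower (*PHO5*, *PHO11*, *PHO12* and *VTC3*), beside 20.9% of all ORFs lower. With 10 genes, or 1 of 9 called with *PHO11* and *PHO12* as 1, these counts are no result about the members as a group. The *ptc1 ptc6* values turned on the replicates. *PHO11* and *PHO12* were at -1.62 and -1.63 in replicate 2 alone, and both were at -0.53 in replicate 1 alone. By the 2-fold rule, which asks for a mean over the arrays at or past 1 or -1, *PHO11* and *PHO12* were again 2 of 10, beside 0.294% of 4754 ORFs lower, and 0 members were higher, beside 1.68%. The 10 members ran from -1.63 to -0.11 in *ptc1 ptc6* replicate 2 alone and from -0.53 to 0.39 in replicate 1 alone. In *ptc6* cells the test called 0 of 10 in either direction, also at an unadjusted p under 0.05, and it called 0% of the 4824 ORFs tested. At an unadjusted p under 0.05 it called 4.52% of these ORFs higher and 3.48% lower. The 2-fold rule called 0 members in *ptc6* cells, beside 0.0549% of 5461 ORFs lower.

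**Figure D2:**
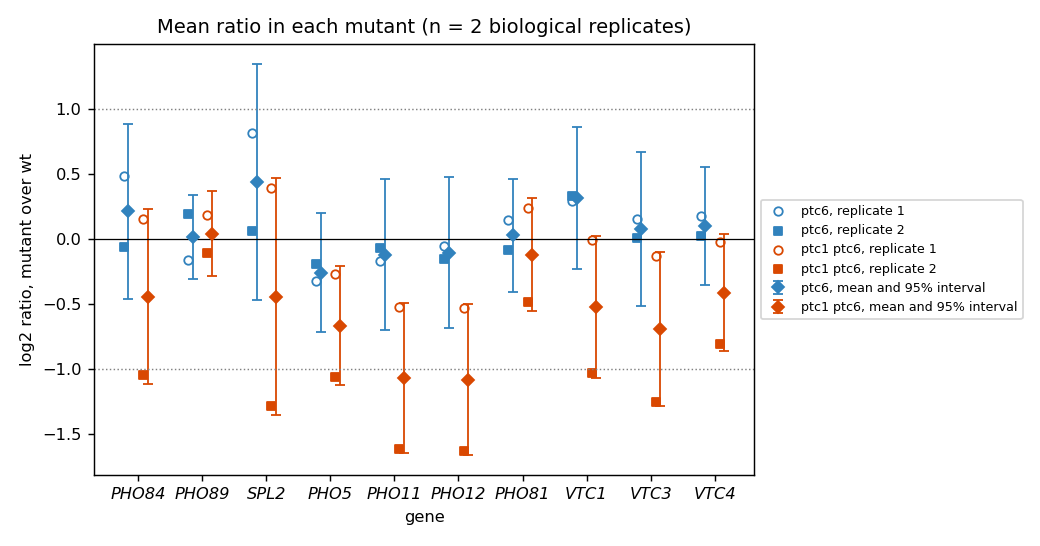
Log2 ratio of mutant over wt (y axis) for each of the 10 genes (x axis), in blue for *ptc6* and red for *ptc1 ptc6* cells. Circles and squares are replicates 1 and 2, each the mean of 2 dye-swap arrays, diamonds are their means with the 95% interval of the limma fit, and dotted lines mark a 2-fold difference. *PHO11* and *PHO12* have *ptc1 ptc6* means of -1.07 and -1.08, and *SPL2* has the widest spread.

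Whether the members differed between the mutants was tested as the *ptc1 ptc6* ratio minus the *ptc6* ratio in the same fit. Of the 10 differences, 9 were below 0. Over all ORFs, the mean ratio was below 0 for 2639 of 4596 in *ptc1 ptc6* cells and for 2119 of 4824 in *ptc6* cells. The largest differences among the members were those of *PHO12*, -0.98 ± 0.34 (SE, adjusted p = 0.154), and *PHO11*, -0.95 ± 0.34 (SE, adjusted p = 0.160). *SPL2* followed with -0.88 ± 0.53 (adjusted p = 0.343), *VTC1* with -0.84 ± 0.32 (adjusted p = 0.179), *VTC3* with -0.77 ± 0.35 (adjusted p = 0.230) and *PHO84* with -0.66 ± 0.39 (adjusted p = 0.338). *VTC4*, *PHO5* and *PHO81* had smaller differences of -0.51, -0.41 and -0.15, and *PHO89* had 0.026. None of the 10 passed in limma, beside 0.0459% of 4361 ORFs called lower and 0.161% higher. At an unadjusted p under 0.05, 3 members were lower (*PHO11*, *PHO12* and *VTC1*) beside 16.5% of all ORFs, and 0 were higher, beside 7.82%. Without replicate 1 of *ptc1 ptc6* the differences of *PHO12* and *SPL2* were -1.53 and -1.72, and without its replicate 2 they were -0.43 and -0.04. With all replicates the intervals of the differences reached -1.80 for *PHO12* and -2.17 for *SPL2*. That the mutants do not differ at these genes is therefore not shown. Each mutant set was compared with wt on its own arrays, so any difference between the sets of hybridizations is part of these values.

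The gap between the *ptc1 ptc6* replicates is given as a description, without a test, since it was known when the genes were picked. Replicate 2 was at least 2-fold below replicate 1 for 6 of the 10 members: *SPL2*, *PHO84*, *VTC3*, *PHO12*, *PHO11* and *VTC1*, or 5 of 9 with *PHO11* and *PHO12* as 1. The same gap was found for 0.457% of the 4596 ORFs, 21 in all, and a gap in the opposite direction for 0.587%, 27 ORFs and no member. Among the 3745 ORFs with a value on all 4 *ptc1 ptc6* arrays, 9 had replicate 2 at least 2-fold lower. The members were 6 of these 9, and the other 3 were *RKR1*, *RPL36A* and *BCH1*, which were picked out after their values were seen. Just outside the 2-fold limit were *PHO5*, *VTC4* and *PHO81*, with gaps of 1.74-fold, 1.72-fold and 1.65-fold. *VTC1*, with 2.03-fold, was just inside. Ranked from the most negative gap among the 3745 ORFs, *SPL2* was at position 1, *PHO84* at 3, *VTC3* at 5, *PHO12* at 6, *PHO11* at 7 and *VTC1* at 9. *PHO5* was at 14, *VTC4* at 17, *PHO81* at 22 and *PHO89* at 277.

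**Figure D3:**
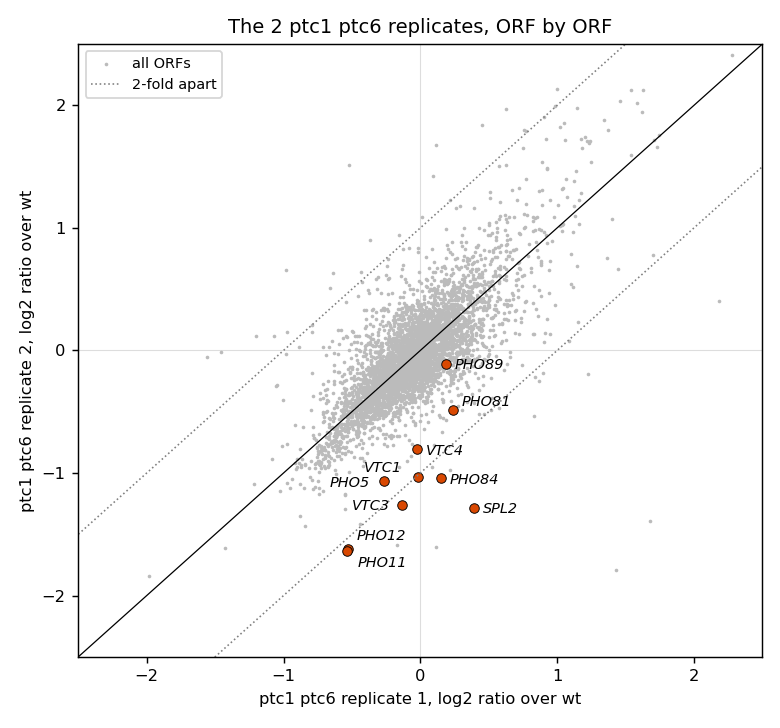
Log2 ratio over wt in *ptc1 ptc6* replicate 1 (x axis) and replicate 2 (y axis) for each ORF with a value in both, with the 10 genes in red and named. The solid line marks equal values, the dotted lines mark a 2-fold gap, and 12 of the 4596 ORFs lie outside the axes. The 10 genes lie below the solid line, 6 of them below the lower dotted line.

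The members' median gap was -1.06 on the log2 scale, with a range from -1.68 to -0.29, while the median over all 4596 ORFs was -0.003 (SD over ORFs 0.29). Both arrays of replicate 2 were below both arrays of replicate 1 for 10 of 10 members, beside 12.9% of the 3745 ORFs. The gap between replicates was also larger than either gap between dye-swap arrays at all 10 members, beside 16.0% of those ORFs. With the mutant in Cy3 on both arrays compared, replicate 2 was lower by a median of -1.03, and with the mutant in Cy5 by a median of -1.08, so that the gap was of like size in both dye orientations. The medians over all ORFs of an array were -0.05 and -0.08 in replicate 1 and -0.006 and -0.101 in replicate 2, after the preprocessing by the authors. Centering each array on its median left 6 members at least 2-fold apart.

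The low values were those of *ptc1 ptc6* replicate 2 against the other 3 replicates. Both of its arrays were below all other 6 arrays for 9 of the 10 members, all but *PHO89*, beside 7.57% of the 3436 ORFs with 8 values. No member had both above the other 6, beside 4.69%. *PHO11*, *PHO12* and *PHO5* were below 0 in replicate 1 of *ptc1 ptc6* too, at -0.53, -0.53 and -0.27, while *PHO84*, *SPL2* and *PHO81* were above 0 there, at 0.15, 0.39 and 0.24. The *ptc6* replicates were closer to each other. None of the 10 members was 2-fold apart between them, beside 0.539% of 4824 ORFs lower in replicate 2, and the widest gaps were -0.75 for *SPL2* and -0.55 for *PHO84*. For 5 members (*PHO84*, *SPL2*, *PHO81*, *VTC3* and *VTC4*) both arrays of *ptc6* replicate 2 were below both of replicate 1, beside 18.0% of 4148 ORFs. For 1 member, *PHO89*, both were above, beside 26.5%.

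Another 30 genes were listed, 29 tied to phosphate in yeast and *CTF19*, a neighbor of *VTC3*. They run from the regulators *PHO4* and *PHO80* to low-affinity carriers, other phosphatases and enzymes that cut polyphosphate. Of these, 25 had a value and 22 were tested in each mutant. In *ptc6* cells 0 of 22 passed the limma test. At an unadjusted p under 0.05, 2 were higher (*PHO13* and *DDP1*), beside 4.52% of all ORFs, and 0 were lower, beside 3.48%. In *ptc1 ptc6* cells 4 of 22 fell and 1 rose, beside the 8.49% and 5.64% of all ORFs. Without *CTF19* 3 of 21 fell. *PHO3*, the constitutive acid phosphatase gene, was at -0.81, -0.58, -1.025 and -0.60 on the 4 arrays, and its mean was -0.76 ± 0.08 (SD, n = 2, adjusted p = 0.0270). *CTF19*, a kinetochore gene, fell to -0.70 ± 0.11 (adjusted p = 0.0270). *PHO8*, the vacuolar alkaline phosphatase gene, was at -0.58 ± 0.21 on 3 arrays (adjusted p = 0.0342). *PHO88*, named for phosphate uptake and known for its part in protein targeting to the endoplasmic reticulum, was at -0.58 ± 0.07 (adjusted p = 0.0371). *GDE1*, which encodes a glycerophosphocholine phosphodiesterase, rose to 0.58 ± 0.04, with 0.73, 0.37, 0.75 and 0.47 on the arrays (adjusted p = 0.0351). Without *ptc1 ptc6* replicate 2 all 5 calls were lost, with adjusted p = 0.0889 for *PHO3*, 0.103 for *CTF19*, 0.287 for *PHO8*, 0.200 for *PHO88* and 0.170 for *GDE1*. Without *ptc1 ptc6* replicate 1 those of *PHO88* and *GDE1* were lost (adjusted p = 0.0796 and 0.0892), as they were on the arrays with the mutant in Cy5 alone (adjusted p = 0.0547 and 0.0655).

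**Figure D4:**
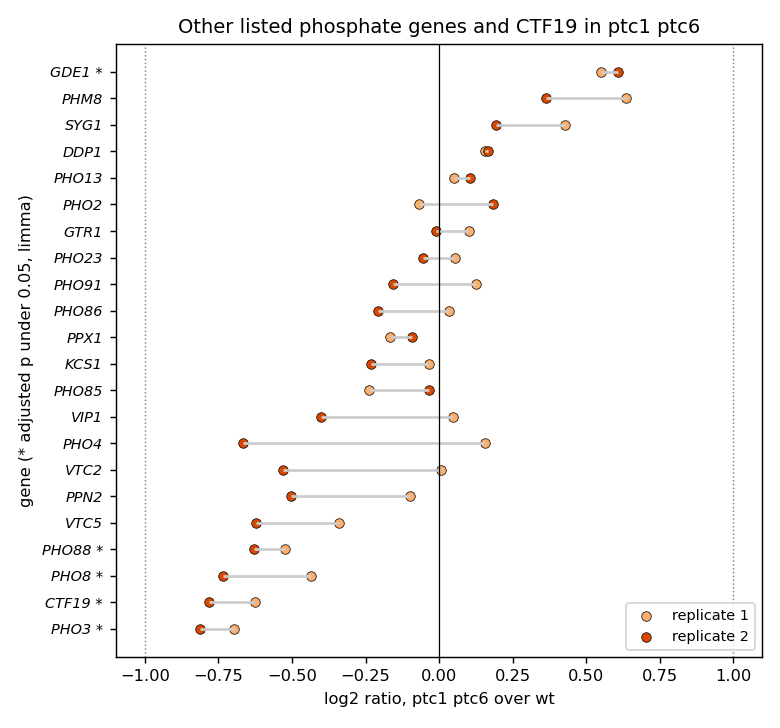
Log2 ratio over wt (x axis) in *ptc1 ptc6* replicate 1 (light) and replicate 2 (dark) for the 22 other listed genes, *CTF19* among them, with a value in both (y axis). Asterisks mark the 5 genes past the limma test, and dotted lines mark a 2-fold difference. *PHO3* and *CTF19* are below 0 in both replicates and *GDE1* is above 0 in both, and no gene of this list is 2-fold apart between replicates.

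These 5 genes were picked by a test that favors close replicates. *PHO3* was at -0.70 and -0.81, and *GDE1* was at 0.55 and 0.61. Over the list, 0 of 22 genes were 2-fold apart between the *ptc1 ptc6* replicates, beside 0.457% of all ORFs lower in replicate 2 and 0.587% higher. The median gap was -0.18, beside -0.003 over all ORFs, and 16 of 22 genes were lower in replicate 2, beside 2331 of 4596 ORFs. The widest was that of *PHO4*, the transcription factor gene, with 0.16 on 1 array of replicate 1 and -0.81 and -0.52 in replicate 2. *VTC2*, which encodes a companion subunit like Vtc3, was at 0.0065 in replicate 1 and -0.53 in replicate 2, but its arrays overlapped.

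*PHO11* and *PHO12* lie in duplicated segments near chromosome ends, and 16 other ORFs around them were listed by a range of ORF names. Whether each of them lies within the duplicated segments was not checked. Of the 16 ORFs, 13 had a value and 8 were tested in *ptc1 ptc6* cells. *YAR068W*, an uncharacterized ORF next to *PHO11*, was at -1.985 and -1.838 on 1 array of each replicate, a mean of -1.91 ± 0.10 (SD, n = 2, adjusted p = 0.00504). Its *ptc6* arrays gave 0.43, -0.22 and 0.042, and the difference between the mutants of -2.08 passed the test (adjusted p = 0.0183). That call was lost without either *ptc6* replicate (adjusted p = 0.0705 without replicate 1 and 0.0943 without replicate 2). *YAR073W* was at -0.61 ± 0.15 (adjusted p = 0.0454), a call that was lost when arrays were centered on their medians (adjusted p = 0.0573) or when *ptc1 ptc6* replicate 1 or 2 was left out (adjusted p = 0.185 and 0.0891). On the arrays with the mutant in Cy3 alone it was at -0.33 (adjusted p = 0.239), and on those with the mutant in Cy5 at -0.88 (adjusted p = 0.0110). None of the 8 ORFs was 2-fold apart between the *ptc1 ptc6* replicates, beside the same 0.457% and 0.587% of all ORFs.

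The ORFs whose 8 values ran closest to the members' median per array were picked by Pearson's r among 3426 ORFs, as a description. The 8 arrays come from 4 RNA pairs, and the 2 arrays of *ptc1 ptc6* replicate 2 were the lowest for each of the 5 ORFs. *SPR6*, a sporulation gene, and *EXP1*, a gene of export from the endoplasmic reticulum, both had r = 0.96. *SPR6* was at -0.058 in *ptc1 ptc6* replicate 1 and -0.76 in replicate 2, and *EXP1* was at 0.032 and -0.43. *ALD5*, which encodes a mitochondrial aldehyde dehydrogenase and lies next to *VTC1*, had r = 0.92, with -0.16 and -0.95. *PPN2*, which encodes a vacuolar endopolyphosphatase and belongs to the list of 30 genes, had r = 0.90, with -0.0975 and -0.50. *YOR218C* had r = 0.88 and a smaller range, 0.053 to -0.17.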

How the data were processed

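The deposited table holds 1 log2 ratio of mutant over wt per ORF and array. Per the study's methods, the authors scanned the arrays with a ScanArray instrument, read them with GenePix Pro 6.0, dropped spots under 120 µm or under 150 fluorescence units and preprocessed the values with GEPAS 3.0. The normalization within arrays and the genome build are not given in the sources used here. The base of the logarithm is not in the file and was taken from the 2-fold rule of the methods. Dye-swapped arrays were already turned the same way, as shown by the deleted ORFs where these had a value. On the *ptc6* replicate 1 array with the mutant in Cy5, *PTC6* had no value, so the direction of that array was not checked. No spot intensities were used, so the signal behind each ratio is unknown. Dropped spots leave fewer dim ORFs. ORF names were paired with symbols of the R64 RefSeq annotation (5662 of 6212), and *PHO88* was found through a synonym.

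The dye-swap arrays of each biological replicate were averaged, since they share RNA. The mean of each mutant was estimated by the lmFit and eBayes functions of limma (version 3.58.1, under R 4.3.3), 2-sided and with 1 spread for both mutants, on ORFs with values in both replicates, and p-values were adjusted by Benjamini-Hochberg with a threshold of 0.05. The code was tested on simulated data. With 2 replicates per mutant, p-values rest on few degrees of freedom. They rest on a spread between replicates that is pooled over both mutants and moderated over ORFs, not on that of 1 mutant alone. The 2-fold rule used the mean over arrays with at least 2 of 4 values. Named genes were the members, the deleted genes and the 5 ORFs with the highest r to the members' median. Genes of the phosphate list and of the list around *PHO11* and *PHO12* were named when past a test or a 2-fold rule. Outside this rule, *PHO4* and *VTC2* were named for their replicate gaps, and *PHO13* and *DDP1* for an unadjusted p under 0.05. The members and lists were chosen with earlier results of these data known. Alternatives changed the centering, the minimum of arrays, the dye orientation, the grouping of arrays, the block and the replicates.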

Additional observations from a re-analysis of the deposited data

Results flagged for a closer look

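The change against wt differed between the mutants for *YAR068W*, the uncharacterized ORF next to *PHO11*, by -2.08 (*ptc1 ptc6* minus *ptc6*, limma, adjusted p = 0.0183), on 2 arrays of *ptc1 ptc6* cells and 3 of *ptc6* cells. This call was lost without either *ptc6* replicate (adjusted p = 0.0705 and 0.0943). It also differed for *PTC1*, by -2.78, which follows from the design, as *PTC1* is deleted in only 1 of the mutants. In 31 groups of 4 arrays, 0 held an array far from the other 3, where chance gives 1.55. That search looks for a single odd array, so it cannot flag 2 dye-swap arrays that differ from the other 2. Dye-swap arrays share RNA and are not independent, so the count is no measure of agreement between replicates.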

How the results depend on the processing

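With 2 replicates per mutant, the *ptc1 ptc6* values turned on the replicates, with a member median of -1.06 without replicate 1 and -0.02 without replicate 2. Members past the test in *ptc1 ptc6* cells numbered 2, beside 649 of 4596 ORFs. With each mutant fitted alone they numbered 0, beside 849 of 4596 ORFs. With the 8 arrays kept apart under a random block they numbered 5, beside 1349 of 4596 ORFs. In fits with 1 replicate left out, the lone replicate was assumed to vary like the other mutant's. Members past the 2-fold rule numbered 2, against 0 when each replicate had to pass it, 0 with the mutant in Cy5 only, and 0 to 7 with 1 replicate left out. For the difference between mutants 0 members passed, beside 9 of 4361 ORFs, against 3 with the random block, beside 744 of 4361 ORFs. The *ptc6* counts were 0, and the *ptc1 ptc6* replicates stayed 2-fold apart for 5 or 6 members, under all alternatives run. The cause of these changes was not tested.

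The replicate numbers are not stated to pair the mutants, and same-numbered replicates deviated apart (r = -0.21 over 4361 ORFs). With the number as a replicate block 5 members passed in *ptc1 ptc6* cells, 3 in the difference and 0 in *ptc6* cells. Over all 4361 ORFs these counts were 782, 268 and 11. With the pairs crossed, an alternative chosen after seeing the data, the member counts were 3, 0 and 0. Over all 4361 ORFs they were then 1052, 482 and 1.

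For single genes, 403 values kept their direction and side of the threshold under an alternative, 32 passed it only there, 25 passed it no longer and 17 changed sign. The signs turned as follows. *PHO89* in *ptc6* cells was -0.00125 with arrays centered and -0.1145 in Cy3, *PHO89* in *ptc1 ptc6* cells -0.0385 in Cy3, and its difference -0.0235 in Cy5. *PHO12* and *PHO81* in *ptc6* cells were 0.0745 and -0.013 in Cy5, and *PHO81* in *ptc1 ptc6* cells 0.0465 in Cy3. With 1 replicate left out, the ranges in *ptc6* cells were -0.064 to 0.485 for *PHO84*, -0.1655 to 0.1895 for *PHO89* and -0.089 to 0.1415 for *PHO81*. In *ptc1 ptc6* cells they were -1.0445 to 0.1485 for *PHO84*, -1.2845 to 0.392 for *SPL2*, -0.108 to 0.1845 for *PHO89* and -0.486 to 0.2385 for *PHO81*. The differences ran from -0.15125 to 0.20375 for *PHO89* and from -0.51225 to 0.21225 for *PHO81*.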
